A study of Rattus norvegicus with 12 samples.

Results

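The choroid plexus is the secretory epithelium of the brain ventricles that makes cerebrospinal fluid. It is not part of the basolateral amygdala (BLA), the forebrain region that was dissected. A set of 10 genes known for strong expression in this epithelium (Ttr, Kl, Folr1, F5, Otx2, Cldn2, Aqp1, Prlr, Igfbp2 and Kcnj13) was followed over the 12 RNA pools of the study. The genes were chosen from their high values in a single pool, sucrose replicate 1, among earlier results of the same arrays, so their values in that pool are a description and were not tested. All probe sets annotated with exactly 1 symbol equal to a member were taken, which gave 14 probe sets for the 10 genes, out of 20826 such probe sets for 14217 genes. A further 1 probe set that names a member among several symbols was left out, and no filter on low values was applied.

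The pools came from the BLA of male Long-Evans rats aged 2-3 months and weighing 225-250 g. Sucrose rats were offered 4 mL of a 30% sucrose drink 2 times a day over 14 days, and control rats received water on the same schedule. All rats were housed singly with free chow and water and were killed on the morning of day 15. For each array, left and right BLA of 2 rats with the same treatment were combined, so that 24 rats gave 6 sucrose and 6 control pools, and the shares of the 2 rats of a pool cannot be told apart.

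Secretion by choroid plexus epithelium rests on apical water and ion transport, on carriers that deliver hormones and vitamins to the fluid, and on tight junctions of a leaky type. The transcription factor Otx2, a homeodomain protein, is required in mice for its development and upkeep. Transthyretin, the product of Ttr, is the major protein that the epithelium secretes.

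All values are log2 of the deposited ratio, in which the signal of a probe set on an array is divided by its mean over the 6 control arrays, so 0 is the control mean and 1 is a doubling. Such a ratio keeps no absolute level. Levels of different genes cannot be compared, and whether BLA or choroid plexus markers were present at all could not be checked against the label. The median log2 ratio of an array over 31042 probe sets lay between -0.016 in sucrose replicate 1 and 0.0032 in control replicate 3. In whole tissue RNA, more cells of a type and more RNA per cell cannot be told apart.

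Sucrose replicate 1 stood at the edge of both technical measures of the arrays, and the results are given with and without it. The mean of its 18 hybridisation control probe sets, bacterial and phage transcripts added before hybridisation, was 0.18 against -0.12 to 0.087 in the other pools. The difference between 3-prime and 5-prime probe sets, averaged over Gapdh and beta-actin as a measure of RNA quality, was -0.14 against -0.038 to 0.084. This came from beta-actin, at -0.28 against -0.071 to 0.096 in the other pools. Gapdh was at 0.0085, inside the other pools (-0.051 to 0.072), and each gene had 1 probe set at either end. Over all probe sets, 217 were higher in this pool than the median of the other 11 by at least 0.5 and 48 were lower by at least that much, and the corresponding upward counts in the other pools ran from 23 to 133 and the downward counts from 27 to 191. The part of these measures in the members' values was not tested.

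In sucrose replicate 1, 9 of the 10 genes had their highest value of the 12 pools, from 14.3 times the control mean for Ttr to 1.42 times for Igfbp2. The exception was Kcnj13, with a ratio of 1.03, which goes against the description of the set as high in this pool. By the same choice of probe set, 14.3% of the 14217 genes were highest in this pool, and 10.7% of all 31042 probe sets. The excess of a gene, its log2 ratio in sucrose replicate 1 minus its median in the other 11 pools, had a median of 1.04 over the members and of 0.0057 over all genes. An excess of at least 0.5 was found for 9 members and for 1.08% of all genes. At the level of probe sets it was found for 10 of the 14 and for 0.699% of all. With the mean of all probe sets of a gene in place of the highest, the excess of Otx2 (0.36), Aqp1 (0.36) and Prlr (0.48) was under 0.5. Because the members were chosen for these values, nothing is read from the contrast with the background. Just above 0.5 were Igfbp2 with an excess of 0.57 and Aqp1 with 0.59, and the one member below it was Kcnj13 with 0.077. The plot of log2 ratios by pool shows the 12 values of each gene.

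**Figure D1:**
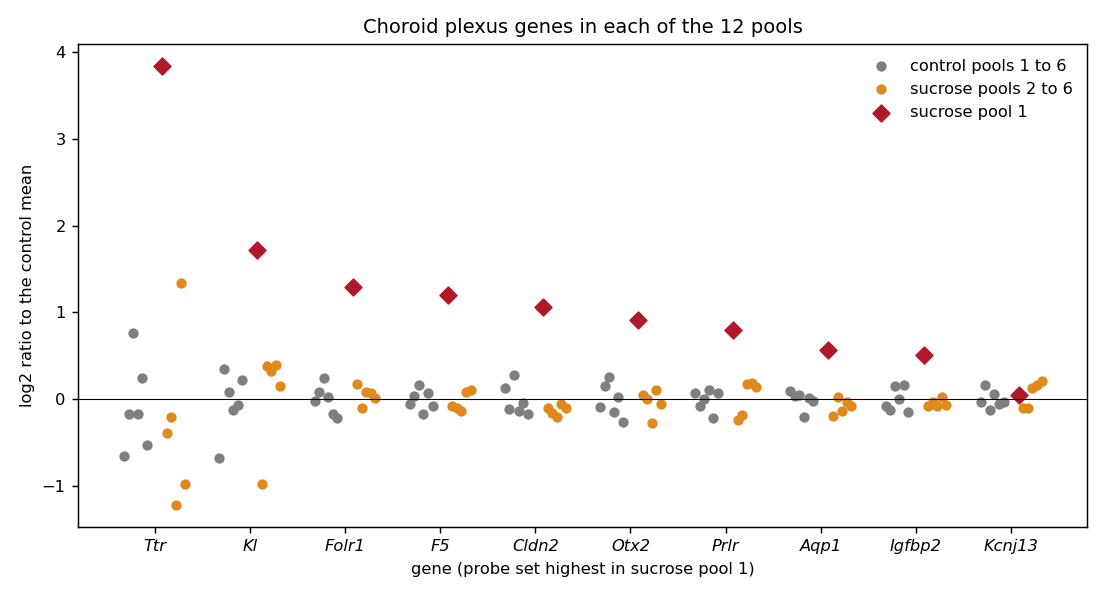
Log2 ratio to the control mean (vertical axis) of the 10 genes (horizontal axis) in each pool, with sucrose replicate 1 as red diamonds, sucrose replicates 2 to 6 in orange and the 6 controls in grey, from replicate 1 on the left to 6 on the right. The diamond lies above every other pool for 9 genes, at 3.84 for Ttr, and within the other pools at 0.045 for Kcnj13.

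Among the secreted proteins, Ttr, the carrier of thyroid hormone and of retinol-binding protein, was at 3.84 in sucrose replicate 1. It was at -0.38, -0.20, -1.22, 1.34 and -0.97 in sucrose replicates 2 to 6 and at -0.65, -0.17, 0.77, -0.17, 0.24 and -0.52 in control replicates 1 to 6. Ttr varied most of the members also among the other 11 pools, with an SD of 0.74, and the sucrose and control values overlapped. After sucrose replicate 1, Ttr was highest in sucrose replicate 5 and then in control replicate 3.

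F5 encodes coagulation factor V, known mainly as a plasma protein made by the liver. Its log2 ratio was 1.21 in sucrose replicate 1, then -0.072, -0.097, -0.13, 0.087 and 0.10 in sucrose replicates 2 to 6, and -0.052, 0.041, 0.17, -0.17, 0.069 and -0.081 in the controls. The other 11 pools spanned 0.34, and the step from the highest of them to sucrose replicate 1 was 1.04. Igfbp2, a secreted protein that binds insulin-like growth factors, was at 0.51 in sucrose replicate 1. In sucrose replicates 2 to 6 it was at -0.082, -0.027, -0.076, 0.028 and -0.061, and in controls at -0.074, -0.13, 0.16, 0.0033, 0.16 and -0.15. Sucrose replicates 2 to 6 thus lay inside the range of the controls for Igfbp2.

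Of the receptors and carriers, Kl encodes klotho, a membrane protein and co-receptor of fibroblast growth factor 23. It was at 1.72 in sucrose replicate 1, at -0.98, 0.38, 0.33, 0.39 and 0.16 in the other sucrose pools, and at -0.67, 0.35, 0.083, -0.12, -0.071 and 0.23 in controls. In addition to the high pool, Kl had 2 low pools, sucrose replicate 2 and control replicate 1. Folr1, the folate receptor that carries folate into cerebrospinal fluid, was at 1.29 in sucrose replicate 1. It was at 0.17, -0.098, 0.086, 0.068 and 0.013 in sucrose replicates 2 to 6 and at -0.018, 0.081, 0.25, 0.023, -0.17 and -0.22 in controls. No other pool came within 1.04 of sucrose replicate 1 for Folr1.

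Prlr, the prolactin receptor, was represented by 3 probe sets. The one highest in sucrose replicate 1 was at 0.80 there, at -0.24, -0.18, 0.18, 0.19 and 0.14 in sucrose replicates 2 to 6, and at 0.073, -0.076, 0.0058, 0.11, -0.21 and 0.072 in controls. The second was at 0.49 in sucrose replicate 1 against -0.21 to 0.28 elsewhere. The other was at 0.10 and below control replicate 5 (0.27), so that only 2 of the 3 probe sets were highest in this pool.

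The junction and channel genes differed among themselves. Cldn2, which encodes a claudin that forms cation- and water-permeable tight junctions, was at 1.06 in sucrose replicate 1. It was at -0.10, -0.16, -0.20, -0.049 and -0.10 in sucrose replicates 2 to 6 and at 0.13, -0.12, 0.28, -0.13, -0.048 and -0.17 in controls. For the water channel gene Aqp1, the probe set highest in sucrose replicate 1 was at 0.57 there. In sucrose replicates 2 to 6 it was at -0.19, 0.028, -0.13, -0.027 and -0.072, and in controls at 0.10, 0.036, 0.044, -0.20, 0.018 and -0.018. The second Aqp1 probe set, at 0.12 in sucrose replicate 1, ranked behind sucrose replicate 3 and control replicate 5 there.

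Kcnj13 encodes the inward rectifier potassium channel Kir7.1 of the apical membrane of this epithelium. It was at 0.045 in sucrose replicate 1, at -0.097, -0.098, 0.13, 0.17 and 0.21 in sucrose replicates 2 to 6, and at -0.031, 0.17, -0.12, 0.056, -0.058 and -0.033 in controls. Sucrose replicate 1 ranked sixth, and sucrose replicate 6 was highest. Otx2 had 2 probe sets that went apart in sucrose replicate 1. One was at 0.91 there, at 0.049, 0.003, -0.27, 0.11 and -0.057 in sucrose replicates 2 to 6 and at -0.092, 0.16, 0.26, -0.15, 0.031 and -0.27 in controls. The other was at -0.21 there, lower than all pools but control replicate 4 (-0.23), although both probe sets had control replicate 3 as the highest of the other 11 pools.

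The promoter sequences are shown for Ttr and Kl, the pair with the largest excess, and for Aqp1 and Kcnj13, the pair whose windows hold a TATA box. RefSeq promoter windows of 250 bases before to 50 after the gene start on assembly GRCr8 were matched by symbol for 7 of the 10 genes, in 8 windows, 2 of them for Prlr. Folr1, Otx2 and Cldn2 had no entry. The windows are at chr18:12218508-12218807 on the plus strand for Ttr, chr12:5325753-5326052 on the plus strand for Kl, chr4:85812534-85812833 on the plus strand for Aqp1 and chr9:95518937-95519236 on the minus strand for Kcnj13, each written 5' to 3' along the gene with TATAAA in capitals.
Ttr: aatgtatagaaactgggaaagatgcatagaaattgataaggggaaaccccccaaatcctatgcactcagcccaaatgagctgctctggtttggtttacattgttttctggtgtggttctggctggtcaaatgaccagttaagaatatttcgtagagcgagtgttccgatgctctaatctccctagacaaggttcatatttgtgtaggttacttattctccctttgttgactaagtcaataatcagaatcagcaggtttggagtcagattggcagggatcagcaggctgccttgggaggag
Kl: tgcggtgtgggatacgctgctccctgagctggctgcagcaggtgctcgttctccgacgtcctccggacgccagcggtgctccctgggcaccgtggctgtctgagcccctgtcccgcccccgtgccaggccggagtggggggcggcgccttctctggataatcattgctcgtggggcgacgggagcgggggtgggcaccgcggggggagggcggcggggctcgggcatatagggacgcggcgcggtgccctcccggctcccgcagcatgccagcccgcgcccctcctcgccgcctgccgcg
Aqp1: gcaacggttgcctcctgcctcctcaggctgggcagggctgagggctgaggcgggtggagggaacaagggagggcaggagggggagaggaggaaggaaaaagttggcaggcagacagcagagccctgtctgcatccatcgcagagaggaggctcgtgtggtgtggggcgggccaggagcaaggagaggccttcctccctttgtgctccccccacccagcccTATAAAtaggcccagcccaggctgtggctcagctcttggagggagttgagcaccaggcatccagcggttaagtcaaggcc
Kcnj13: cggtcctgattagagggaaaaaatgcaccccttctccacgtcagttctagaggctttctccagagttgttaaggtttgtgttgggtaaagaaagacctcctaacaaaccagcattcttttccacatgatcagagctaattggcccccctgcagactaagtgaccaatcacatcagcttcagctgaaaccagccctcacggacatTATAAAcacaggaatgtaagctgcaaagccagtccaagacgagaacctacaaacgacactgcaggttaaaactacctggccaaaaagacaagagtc

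TAATCC, the core motif bound by Otx homeodomains, was searched on both strands and was found in 0 of the 8 member windows and in 7.17% of 33469 rat promoter windows. TATAAA, also searched on both strands, was found in 2 of 8, Aqp1 at position -30 and Kcnj13 at -46 from the start, and in 14.2% of all windows. The GC content of the member windows ran from 43.7% for Ttr to 75.0% for Kl, with a median of 55.5% against 51.7% for all windows. The 10 genes lie on 9 chromosomes, with Igfbp2 and Kcnj13 both on chromosome 9.

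The groups were compared without sucrose replicate 1, the pool that chose the members, in a limma fit over all 31042 probe sets of 5 sucrose and 6 control pools. No member was called different between the groups, and neither was any other of the 31042 probe sets. Nothing particular to the members is read from this. Of the 10 genes 4 were higher and 6 lower after sucrose, with a median difference of -0.020 against -0.0024 over all probe sets, and 0 had an adjusted p under 0.05. The background was 0% of probe sets at that threshold, and 6.65% at an unadjusted p under 0.05, where the members again had 0. The median difference of the members was 0.020 without control replicate 3 and 0.016 without sucrose replicate 4. For Ttr the mean ± SD was -0.29 ± 1.00 in sucrose replicates 2 to 6 and -0.083 ± 0.52 in controls, a difference of -0.20 with a 95% interval from -1.06 to 0.65 (limma adjusted p = 0.958). The interval of Kl also was wide, from -0.44 to 0.62 around 0.091. The remaining 8 genes had narrower intervals, with the outermost bounds at -0.27 for Cldn2 (difference -0.11, limma adjusted p = 0.840) and 0.22 for Folr1 (difference 0.056, limma adjusted p = 0.929). Sucrose and control pools overlapped for every one of the 10 genes, but the share of all probe sets that overlap was not counted. Nothing is read from this overlap.

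With all 12 pools, every member was higher in the sucrose group by its probe set highest in sucrose replicate 1. The difference ran from 0.032 for Aqp1 to 0.48 ± 0.69 (SE) for Ttr, with a median of 0.14. The other probe sets of Otx2 (-0.027) and Aqp1 (-0.013) were lower after sucrose, and those of Prlr were at -0.040 and 0.021. The median was 0.070 and the difference of Ttr 0.045 after a second quantile normalization, and the median was 0.074 with the mean of all probe sets of a gene. The pool that chose the genes is part of this comparison, and the direction turned for 6 of them without it. For Ttr the difference went from 0.48 to -0.20, for F5 from 0.19 to -0.018 and for Otx2 from 0.14 to -0.022. For Cldn2 it went from 0.085 to -0.11, for Aqp1 from 0.032 to -0.076 and for Igfbp2 from 0.054 to -0.038. It stayed above 0 for Kl, Folr1, Prlr and Kcnj13. In the limma fit of all 12 pools 0 members had an adjusted p under 0.05, with 0% of all probe sets, and 0 an unadjusted p under 0.05, with 7.57% of all. None of the 14 probe sets is in the authors' deposited table of 145 probe sets.

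**Figure D2:**
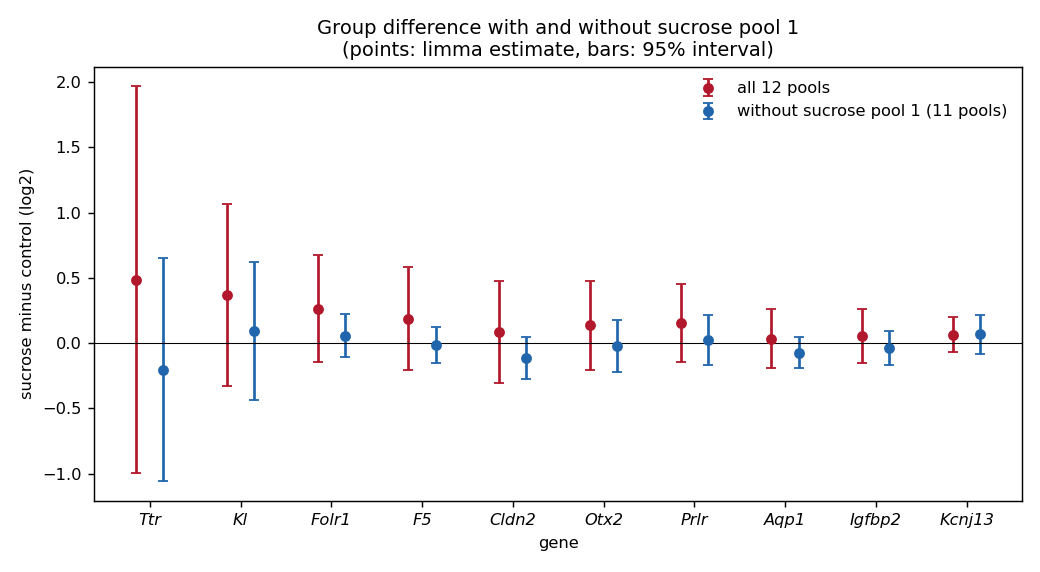
Difference between sucrose and control in log2 units (vertical axis) for each gene (horizontal axis), as the limma estimate with its 95% interval, over all 12 pools in red and without sucrose replicate 1 in blue. All red points are above 0, from 0.032 to 0.48, while the blue points lie on both sides of 0, from -0.20 for Ttr to 0.091 for Kl, and every interval includes 0.

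Whether the genes vary together in the pools that did not choose them was examined over the other 11 pools in all 45 pairs. Pearson r was above 0 in 30 pairs and above 0.5 in 12, with a median of 0.21 and a range from -0.40 (Otx2 with Prlr) to 0.74 (F5 with Otx2). The same shares among pairs of other genes were not computed, so nothing is read from these counts. No pair passed the permutation test after adjustment over the 45 pairs, and 5 had an unadjusted p under 0.05. Over all 12 pools the median r was 0.79, and the 36 pairs without Kcnj13 ran from 0.61 to 0.95, which describes the pool that chose the genes and is no sign of a relation in the other pools.

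Of the 5 pairs with the highest r over 11 pools, 4 joined F5, Otx2, Ttr, Igfbp2 and Cldn2, and the other was Prlr with Kcnj13. F5 with Otx2 had r = 0.74 (permutation p = 0.0106, adjusted p = 0.333) and rho = 0.70 (permutation p = 0.0205, adjusted p = 0.231), and r was 0.73 without sucrose replicate 6 and control replicate 3, the pools farthest from the median of F5. Ttr with Otx2 had r = 0.70 (permutation p = 0.0149, adjusted p = 0.333) and rho = 0.70 (permutation p = 0.0205, adjusted p = 0.231), with 0.66 without sucrose replicates 4 and 5. Ttr with Igfbp2 had r = 0.64 (permutation p = 0.0331, adjusted p = 0.333) and rho = 0.65 (permutation p = 0.0338, adjusted p = 0.269), and 0.78 without the same pools. Prlr with Kcnj13 had r = 0.64 (permutation p = 0.0390, adjusted p = 0.333) and rho = 0.72 (permutation p = 0.0156, adjusted p = 0.231), and 0.53 without sucrose replicate 2 and control replicate 5. F5 with Cldn2 had r = 0.60 (permutation p = 0.0414, adjusted p = 0.333) and rho = 0.75 (permutation p = 0.0114, adjusted p = 0.231), and 0.39 without sucrose replicate 6 and control replicate 3, so that this relation rests in part on those pools. Without control replicate 1, 2 pairs passed, F5 with Cldn2 (r = 0.73) and Otx2 with Cldn2 (r = 0.73), both with a permutation adjusted p of 0.0495.

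**Figure D3:**
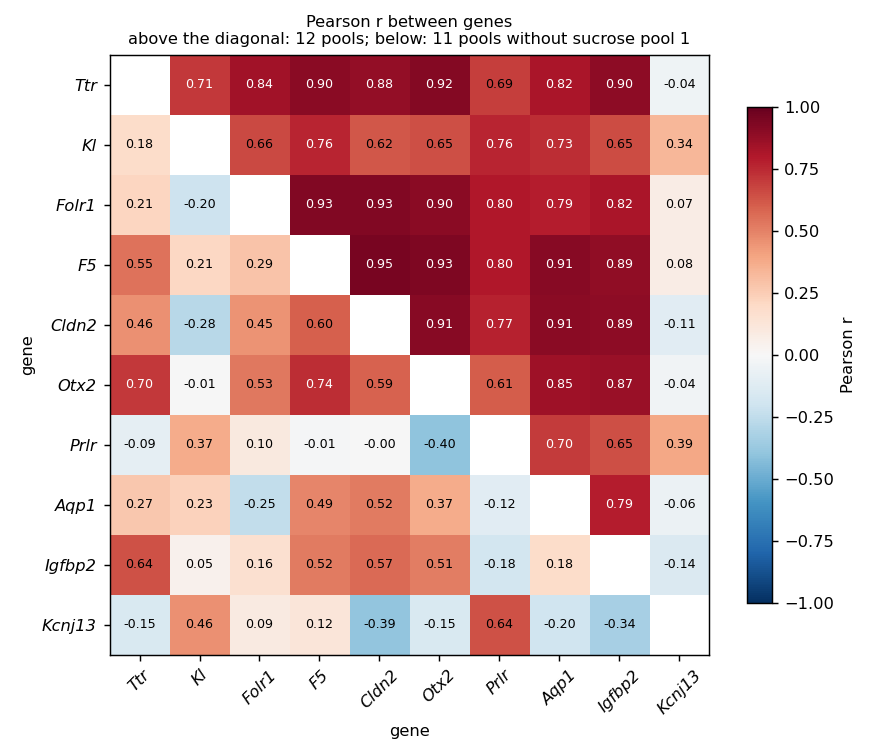
Pearson r between each pair of genes (both axes) by colour and value, above the diagonal over all 12 pools and below it over the 11 pools without sucrose replicate 1. Above the diagonal the pairs without Kcnj13 run from 0.61 to 0.95, and below it r ranges from -0.40 to 0.74, with 0.74 for F5 with Otx2, 0.70 for Ttr with Otx2 and 0.64 for both Ttr with Igfbp2 and Prlr with Kcnj13.

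Some pools were high for several members at once. Control replicate 3 was the highest of the other 11 pools for Folr1, F5, Otx2 and Cldn2 and the highest or second for 7 of the 10 genes, at 0.77 for Ttr and 0.28 for Cldn2. Of all 14217 genes, 14.9% were highest in that pool and 26.9% highest or second. It was the lowest pool for Kcnj13, at -0.12. Sucrose replicate 5 was the highest of the 11 for Ttr, Kl and Prlr, and its Ttr value of 1.34 stood beside 0.11 for Otx2. That pool was the highest of the 11 for 10.6% of all genes. When each gene was set against the scaled mean of the other 9 over 11 pools, r was 0.78 for F5, 0.63 for Otx2, 0.60 for Ttr, 0.54 for Cldn2 and 0.44 for Igfbp2. The share of all probe sets with a higher r was 0.232% for F5, 2.11% for Otx2, 3.00% for Ttr, 4.95% for Cldn2 and 8.90% for Igfbp2. For Aqp1, Folr1, Kl, Prlr and Kcnj13 that share ran from 19.4% to 50.7%. These r values are descriptions over 11 pools that share the same arrays.

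Of the other named genes, those most like the mean of the 10 members over the 11 pools were Dnaja3 (r = 0.90), Paqr4 (0.87), Dkk3 (0.86), Pkp4 (0.86), Dnaaf9, Hdac4, Irf2bpl and Omg (0.85 each), Limd1 and Cntnap2 (0.84 each). They were picked as the highest r among the 20826 probe sets with 1 symbol, those of the members left out. So large a choice over 11 pools gives high r by itself, and these r values were not tested. Ttr and Kl, which vary most, weigh most in that mean. Against the members without Ttr the same r ran from 0.64 for Irf2bpl to 0.88 for Dnaaf9. In sucrose replicate 1 these probe sets were between -0.16 and 0.21, without the high value that chose the members, although the other probe set of Pkp4 was at 1.14. Their SD over the other 11 pools ran from 0.030 for Omg to 0.22 for Hdac4.

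Other genes of the choroid plexus epithelium were described in the same way. Of a list of 52, of which 45 were measured, 16 were highest of the 12 pools in sucrose replicate 1, against the 14.3% of all genes, and 6 had an excess of at least 0.5, against 1.08%. The list was chosen with earlier results of these arrays known. Its median excess was 0.093, against 0.0057 over all genes, and the excess was above 0 for 38 of the 45. The 6 were Sostdc1, a secreted antagonist of BMP and Wnt signals (2.14), the organic anion transporter gene Slco1a5 (0.92), the collagen gene Col8a2 (0.74), the homeobox gene Msx1 (0.64), Calml4 (0.63) and the keratin gene Krt18 (0.55). Next came Clu (0.47), Enpp2, which encodes autotaxin (0.43), the vitamin C transporter gene Slc23a2 (0.43) and Krt8 (0.39). At the lower end were the ion cotransporter gene Slc12a2 (-0.068), Bsg (-0.063), Spint2 (-0.031) and Slco1a4 (-0.021). Enpp2 was not highest in sucrose replicate 1, at 0.45 there against up to 0.46 in the other pools. Some genes of the list, Clu, Bsg, Slco1a4 and Slc12a2 among them, are also expressed by other cells of the brain. Among the 11 other pools Sostdc1 was highest in control replicate 5, at 0.44, not in control replicate 3.

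Markers of neighbouring tissues and cell types also had high or low values in sucrose replicate 1, and their part in the members' values was not tested. Each gene is given by its probe set highest in this pool, which raises the list means there. By the same choice 14.3% of all genes were highest in this pool, and a mean over all genes was not computed. Ependyma and motile cilia genes had a mean of 0.31 in this pool, -0.13 to 0.15 in the other sucrose pools and -0.25 to 0.16 in controls. Of 12 measured genes 8 were highest there, among them Tmem212 (excess 0.64), Dynlrb2 (0.64), Ak7 (0.61) and Cfap126 (0.45). The excess was above 0 for 10 of the 12, and the lowest was -0.043. Astrocyte genes had a mean of 0.35, 0.077 to 0.12 in the other sucrose pools and -0.24 to 0.081 in controls, with 4 of 8 highest. Slc4a4 (excess 0.66), Aqp4 (0.62) and Slc1a2 (0.51) led, each by the highest of its 2 or 3 probe sets. None of the astrocyte genes with 1 probe set was highest there. The excess was above 0 for 6 of the 8, and the lowest was -0.093. Hippocampal markers had a mean of 0.23 against -0.070 to 0.079 in all other pools. Of the 5 genes 2, Fibcd1 (0.76) and Zbtb20 (0.50), had an excess of at least 0.5, against 1.08% of all genes. The value of Zbtb20 is from the highest of its 6 probe sets. Wfs1 had its lowest value of the 12 pools in sucrose replicate 1 (excess -0.21). Pallial and BLA excitatory neuron genes had a mean of 0.18, with 5 of 10 highest there. The 10 striatal and central amygdala genes had their lowest mean of the 12 pools, -0.19 against -0.11 to 0.12 elsewhere, led by Drd2 (excess -0.51).

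The genes of meninges and stroma, endothelium, and microglia and macrophages had means within the range of the other pools, at 0.018, -0.050 and -0.029 in sucrose replicate 1. Of their genes 1 of 21, 1 of 11 and 0 of 12 were highest there, and 0, 3 and 1 were lowest there. The share of all genes lowest in this pool was not counted, so these counts and the lowest value of Wfs1 have no background. Blood genes had a mean of 0.076 against -0.099 to 0.064 in the other pools, with 2 of 8 highest, and oligodendrocyte genes 0.13 against 0.38 in sucrose replicate 5, with 0 of 7 highest. Because ratios keep no level, no marker can be said to be at 0.

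**Figure D4:**
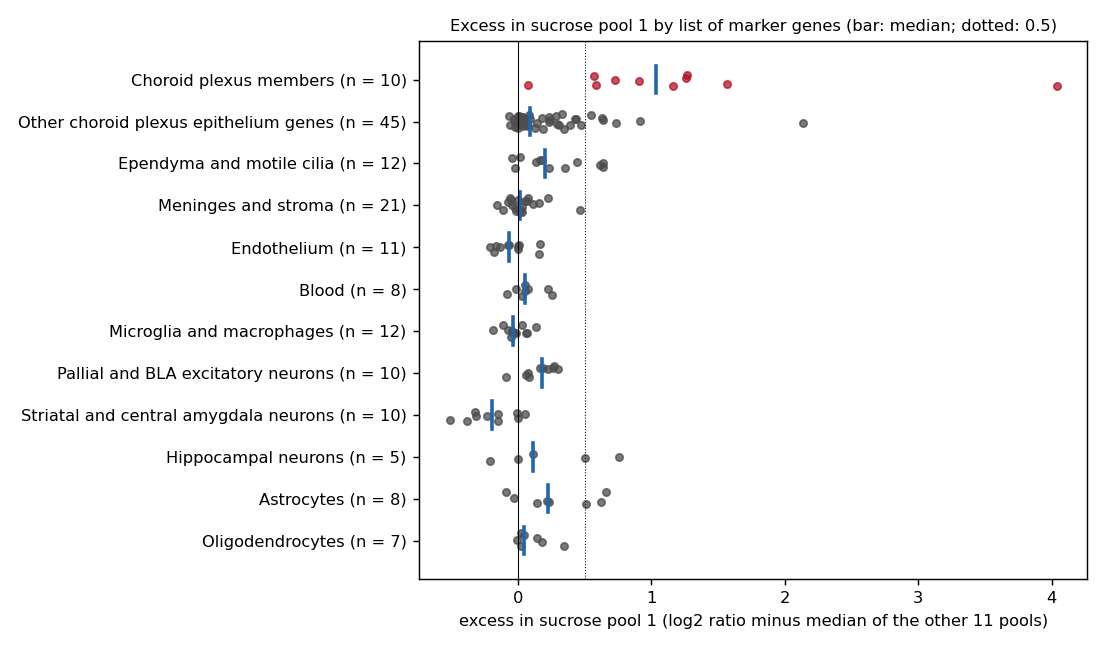
Excess in sucrose replicate 1, the log2 ratio minus the median of the other 11 pools (horizontal axis), of each gene in the marker lists (rows), with the 10 members in red, the median of a row as a blue bar and 0.5 as a dotted line. The members reach 4.04 with a median of 1.04, the other choroid plexus genes reach 2.14 with a median of 0.093, and the striatal and central amygdala genes have a median of -0.19.

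The genes farthest up in sucrose replicate 1 outside the members were not all of this tissue. After Sostdc1 came Sppl2a (1.53), Fcrl2 (1.49), the integrin gene Itgb6 (1.19), the muscle myosin gene Myh1 (1.07), the kinesin gene Kif5c (1.07), Mfrp (1.05), Pkp4 (1.04), Mis18a (1.04), RT1-CE5 (1.00), the cilium gene Cfap144 (0.94) and Slco1a5 (0.92). Ttr, with 4.04, exceeded all of them, and Kl, with 1.57, all but Sostdc1. Both were chosen for their values in this pool, so nothing is read from this order. After a second quantile normalization the excess was 2.03 for Ttr and 0.78 for Kl. Not every probe set went the same way, with 3 of 4 for Sppl2a and 2 of 3 for Kif5c. The lowest excess among the probe sets of a gene was 0.054 for Myh1, 0.032 for Pkp4 and 0.0029 for RT1-CE5. Some probe sets ranged widely in the other 11 pools, Mis18a from -1.95 to 0.82 and Fcrl2 from -1.22 to 0.64. Farthest down were Mx2 (-1.15), an interferon-induced gene, Creg1 (-1.02), RT1-T24-4 (-0.89), the sodium channel subunit gene Scn4b (-0.78), Sptssb (-0.74) and Dach1 (-0.74), where for Creg1 and Sptssb 1 of 2 probe sets was lower.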

How the data were processed

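Each array carried biotin-labelled RNA of 1 pool of 2 rats, and the processing notes of the submitters name RMA, with no version. The deposited value of a probe set is a linear ratio: averaged over the control arrays, every probe set came to 1 with an error of at most 2.02e-07. A second deposited table holds the authors' p-values and mean ratios of 145 probe sets, and was used only to look up the members. All tests omitted 57 manufacturer controls.

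Ratios were taken to log2 with no pseudocount and no filter. Where a member or a gene of a marker list had several probe sets, the one highest in sucrose replicate 1 was used, whereas the other genes named for sucrose replicate 1 or for likeness are given by the probe set that met that rule. This choice raises the values in that pool, so the same choice was made for all 14217 genes as background. The group comparison used the functions lmFit and eBayes of limma (version 3.58.1, under R 4.3.3). Treatment was its sole factor, no variance trend was fitted, and two-sided p-values from all 31042 probe sets were adjusted by Benjamini-Hochberg and read at 0.05. The procedure was tested on simulated data. Correlations of 45 pairs used two-sided permutation tests with 100000 resamples. The number of arrays limits the precision of every value. The 10 members and the marker lists were chosen with earlier results of these data known.

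Genes other than members were named by rule: the 10 most like the mean of the members over 11 pools, the 12 highest and 6 lowest in sucrose replicate 1, up to 10 and 4 other choroid plexus genes at the upper and lower ends, and up to 4 of each other marker list. Same-numbered sucrose and control pools did not deviate together (r from -0.15 to 0.19, over 0.1 in 1 of 6 pairs), so the numbers were not taken as pairs. Alternatives comprised centring, renewed quantile normalization, blocking on the replicate number, the mean of the probe sets of a gene, robust fitting, array weights, another reference for the excess, deviations from group means and leaving out each pool.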

Additional observations from a re-analysis of the deposited data

Results flagged for a closer look

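Dixon's test at the 95% level was applied to the highest and lowest pool within each treatment. Probe sets chosen on sucrose replicate 1, those of the members and marker lists included, were examined without that pool. The test singled out a pool in 6 of 134 sets of values, where chance flags about 1 in 20 groups. Among the members it was Kl, at -0.98 in sucrose replicate 2. Among the other named genes it was Sostdc1 at 0.44 in control replicate 5, Slc23a2 at 0.24 in control replicate 6, Bsg at 0.11 and Cntnap2 at 0.058 in control replicate 3, and Dnaja3 at 0.11 in sucrose replicate 5.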

How the results depend on the processing

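No member passed an adjusted p of 0.05 without sucrose replicate 1 under any alternative tried. The median excess of the members in sucrose replicate 1 was 1.04, and 0.67 after a second quantile normalization, which by construction gives the highest ratios of all arrays the same values and left Aqp1 (0.37), Prlr (0.42) and Igfbp2 (0.37) under 0.5. It was 0.86 with the mean of the probe sets of a gene and 1.16 without Kcnj13, an alternative chosen after seeing the data. Against the other 5 sucrose pools alone the excess of Kcnj13 was -0.086. With the replicate block, in which control replicate 1 has no partner once sucrose replicate 1 is left out, the difference of Kl was -0.037, while no call changed. With array weights that of Otx2 was 0.015 and that of Prlr -0.014, and with the mean of its probe sets that of Prlr was -0.041. Leaving out 1 further pool, the difference without sucrose replicate 1 ran from -0.037 to 0.35 for Kl, -0.073 to 0.037 for Otx2, -0.051 to 0.016 for F5, -0.020 to 0.087 for Prlr and -0.61 to 0.029 for Ttr. It kept its sign for Cldn2 (-0.14 to -0.053), Folr1 (0.015 to 0.11), Aqp1 (-0.12 to -0.048), Igfbp2 (-0.067 to -0.0047) and Kcnj13 (0.030 to 0.11). The median difference of the members ran from -0.051 to 0.020. The signs turned without control replicate 1 for Kl, sucrose replicate 4 for Ttr, control replicate 3 and sucrose replicates 3 and 4 for F5, control replicates 2 and 3 and sucrose replicate 4 for Otx2, and control replicate 5 and sucrose replicates 4 to 6 for Prlr. The number of pairs past the threshold ran from 0 to 2, with 2 without control replicate 1. Over all 12 pools, leaving out each in turn moved the median difference between -0.020 and 0.19, and the difference between -0.20 and 0.81 for Ttr, -0.018 and 0.25 for F5, -0.022 and 0.21 for Otx2, -0.11 and 0.14 for Cldn2, -0.076 and 0.076 for Aqp1 and -0.038 and 0.087 for Igfbp2. The lowest of each came without sucrose replicate 1, Aqp1 was also below 0 without control replicate 4 (-0.0073), and the cause of the other changes of sign was not tested. A dim probe set could not be recognised from ratios.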
